A study of Mus musculus with 15 samples.

Results

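The MHC class I presentation genes were 10 genes chosen by name from the 55486 genes of the in vivo count table. They were the heavy chains H2-K1 and H2-D1, the light chain B2m, the peptide transporter subunits Tap1 and Tap2, the loading factor Tapbp, the proteasome subunits Psmb8 and Psmb9, the trimming peptidase Erap1 and the transactivator Nlrc5. All 10 were found, and all 10 were among the 14843 genes that passed the filter on low counts. The study sequenced RNA in bulk from macrophages sorted by flow cytometry out of primary mouse brain tumours. The labels give the genotype as Ink4a/ArfKO with PDGFB, and every group shares it: the growth factor PDGFB, expressed in Nestin-positive progenitor cells, drives the glioma, and the Ink4a/Arf tumour suppressor locus is deleted. The 4 groups were lipid-laden monocyte-derived macrophages (MDM), MDM without lipid load, lipid-laden microglia and microglia without lipid load. MDM enter the brain from the blood, and microglia are its resident macrophages. For the stain and gates that set lipid load and cell origin, the age of the mice and the mice per library, no detail is given in the sources used here. No normal brain was among the libraries.

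Class I molecules show peptides from inside the cell to cytotoxic T cells and natural killer cells. The proteasome cuts proteins into peptides, the TAP transporter carries them into the endoplasmic reticulum, Erap1 trims them, and Tapbp (tapasin) holds an empty heavy chain with B2m at the transporter until a peptide fits. Interferon-gamma raises most of these genes, exchanges catalytic subunits of the constitutive proteasome for Psmb8, Psmb9 and Psmb10, and induces Nlrc5, which drives transcription from class I promoters. Macrophages present by this route both their own peptides and, in cross-presentation, those of engulfed material.

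The 15 libraries were 3 of lipid-laden MDM and 4 of each other group, numbered 221, 224, 431 and 718 in the titles. The count table held no lipid-laden MDM library of number 431. Total counts per library ran between 7798952 and 11419338. The 4 values of a group are given below in the order 221, 224, 431 and 718, and the 3 of lipid-laden MDM in the order 221, 224 and 718. Levels are CPM, counts scaled to library size after TMM normalisation. Nothing in the labels says that libraries of a group came from separate mice, so p-values measure the spread between these libraries. Number 221 stood apart: in microglia it held the highest value of all 10 members, in lipid-laden microglia of 7, in MDM of 9 and in lipid-laden MDM of 7, so values without it are given where they differ.

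Markers were checked against the labels. The summed level of 8 microglia markers ran between 6160 and 8846 CPM in lipid-laden MDM, 2045 and 3368 CPM in MDM, 5712 and 14495 CPM in lipid-laden microglia and 8558 and 13012 CPM in microglia, so lipid-laden MDM overlapped lipid-laden microglia. Of 7 MDM markers the sums were 1220 to 1586, 2969 to 3549, 236 to 438 and 199 to 331 CPM in the same order of groups, with no marker at 0. Markers of other cells were checked too: 14 T and NK cell markers summed to 92.6 to 188 CPM in lipid-laden MDM, 338 to 524 CPM in MDM, 2.34 to 16.2 CPM in lipid-laden microglia and 2.81 to 12.5 CPM in microglia. Klrk1, an activating receptor of NK cells, made most of the T and NK sum in MDM, with 24.6 to 38.3 CPM in lipid-laden MDM and 255 to 313 CPM in MDM. Without it, a choice made after seeing the values, the other 13 summed to 67.8 to 149 CPM in lipid-laden MDM, 58.1 to 229 CPM in MDM, 2.34 to 11.7 CPM in lipid-laden microglia and 2.81 to 10.6 CPM in microglia, so the MDM groups overlapped. Dendritic cell markers, 10 in all, summed to 187 to 248, 1232 to 2758, 21.7 to 33.6 and 33.1 to 58.6 CPM in that order. Glioma and progenitor markers, 10 in all, summed to 65.1 to 137, 12.01 to 25.3, 169 to 444 and 121 to 387 CPM. Some defining markers were at 0: Cd3d and Ncr1 among others of the T and NK list in lipid-laden microglia, Cd3e and Ncr1 in microglia, Clec9a, Dpp4 and Cd209a of the dendritic list in lipid-laden microglia, and Sox2 of the glioma list in MDM. In bulk RNA, more cells of another type and more RNA per cell cannot be told apart, and the part of these cells in any result on the members was not tested.

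Of the members, 7 lie on chromosome 17, which holds the mouse MHC. In the deposited coordinates (mm10), Tapbp is at chr17:33915899-33929292, H2-K1 at chr17:33996017-34000347, Psmb9 at chr17:34181987-34187764, Tap1 at chr17:34187553-34197225, Psmb8 at chr17:34197721-34201454, Tap2 at chr17:34203527-34216321 and H2-D1 at chr17:35262730-35267499. H2-K1 and Psmb9 run on the minus strand and the others on the plus strand. B2m lies at chr2:122147686-122153083, Erap1 at chr13:74639568-74693201 and Nlrc5 at chr8:94434356-94527272, all on the plus strand. Psmb9 and Tap1 run away from each other, and their loci share 212 bases, where reads can belong to either gene because the strand setting of the counting is not given in the sources used here.

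Promoter sequences are shown because the heavy chain and light chain promoters are textbook sites of interferon and NF-kappa B control. Another reason is that Tap1 and Psmb9 start 226 bases apart in RefSeq. RefSeq starts Psmb9 at 34187330, whereas the deposited coordinates run it to 34187764, past the start of Tap1. The sequences are RefSeq windows (GRCm38.p6) of 250 bases before to 50 bases after the gene start, given for 8 of the 10 members. Capitals mark matches, on both strands, to the interferon-stimulated response element (ISRE) core GAANNGAAA, a fuller ISRE form with a further A after the leading GAA, the NF-kappa B consensus, the CRE core TGACG and the CCAAT box, and overlapping matches run together. The windows are H2-K1 at chr17:34000298-34000597 (minus strand), H2-D1 at chr17:35262844-35263143 (plus), B2m at chr2:122147437-122147736 (plus) and Tap1 at chr17:34187306-34187605 (plus).
H2-K1: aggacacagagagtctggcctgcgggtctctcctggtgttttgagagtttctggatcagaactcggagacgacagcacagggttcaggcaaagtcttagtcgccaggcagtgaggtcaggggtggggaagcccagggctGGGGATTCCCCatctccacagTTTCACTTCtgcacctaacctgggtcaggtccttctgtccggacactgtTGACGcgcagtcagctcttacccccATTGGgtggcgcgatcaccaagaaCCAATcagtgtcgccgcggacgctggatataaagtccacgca
H2-D1: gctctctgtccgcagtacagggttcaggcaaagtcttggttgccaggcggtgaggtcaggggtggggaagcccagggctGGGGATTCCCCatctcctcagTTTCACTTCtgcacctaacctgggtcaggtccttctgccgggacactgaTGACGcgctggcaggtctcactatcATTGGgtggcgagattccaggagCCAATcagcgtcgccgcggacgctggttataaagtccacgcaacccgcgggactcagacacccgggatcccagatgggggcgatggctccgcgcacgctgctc
B2m: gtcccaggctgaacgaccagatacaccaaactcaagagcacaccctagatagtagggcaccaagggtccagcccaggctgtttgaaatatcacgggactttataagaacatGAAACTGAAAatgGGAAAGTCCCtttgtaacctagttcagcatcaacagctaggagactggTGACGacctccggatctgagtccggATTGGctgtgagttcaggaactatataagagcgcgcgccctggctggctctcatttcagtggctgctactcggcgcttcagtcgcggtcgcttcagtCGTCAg
Tap1: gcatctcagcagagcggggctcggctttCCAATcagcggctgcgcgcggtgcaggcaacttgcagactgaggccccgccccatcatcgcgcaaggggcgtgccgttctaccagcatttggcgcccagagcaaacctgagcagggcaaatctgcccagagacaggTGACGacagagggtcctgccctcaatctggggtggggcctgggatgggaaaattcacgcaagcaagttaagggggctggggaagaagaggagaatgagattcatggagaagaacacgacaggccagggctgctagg

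The H2-K1 and H2-D1 windows aligned over 228 positions with 90.4% identity, and both carried an NF-kappa B match, an ISRE core, a CRE core and CCAAT boxes in the same order. B2m carried the fuller ISRE form beside an NF-kappa B match. Across all 27025 promoter windows of the table, 7.56% held the ISRE core, 3.49% the fuller form, 8.18% the NF-kappa B consensus, 21.02% the CRE core and 37.9% a CCAAT box. Among the 8 members with a window, 2 held the ISRE core (H2-K1 and H2-D1), 2 the fuller form (B2m and Erap1), 3 the NF-kappa B consensus (H2-K1, H2-D1 and B2m), 5 the CRE core and 6 a CCAAT box. The windows of Tap1 and Psmb9 share 275 of their 300 bases, so their CRE core and CCAAT box are the same letters read on opposite strands. A match describes letters in a window and no binding was measured.

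Per kilobase of exon, B2m was the most abundant member, with a median of 2618 CPM per kb over the 15 libraries, ahead of H2-D1 at 1087 and H2-K1 at 787 CPM per kb. Tapbp followed with a median of 146 CPM per kb, Psmb8 with 84.2, Psmb9 with 43.0 and Tap1 with 30.9 CPM per kb. Erap1 at 12.6, Tap2 at 9.33 and Nlrc5 at 8.01 CPM per kb were the least abundant. B2m did not overlap any other member, between 2319 and 3520 CPM per kb, whereas the ranges of H2-D1 (871 to 1493) and H2-K1 (557 to 1148 CPM per kb) overlapped. Tapbp stayed below both, and from Tapbp down to Nlrc5 the ranges of neighbours overlapped. Of the 50-base stretches of their transcripts, 9.63% in H2-K1 and 12.8% in H2-D1 also occur in another gene, most often H2-Q10 for H2-K1 and H2-Q1 for H2-D1, so reads there may be shared or lost. For B2m, Psmb9, Erap1 and Nlrc5 the share was 0, for Tap1 0.442%, for Tap2 0.655%, for Psmb8 0.227% and for Tapbp 2.87%. Read length is not given in the sources used here.

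MDM were first set against microglia, both without lipid load. Of the 6 members that make, carry, trim or load peptides, 4 rose in MDM: Psmb8, Psmb9, Tap2 and Tapbp, by between 1.90-fold and 2.31-fold. The other members of that kind, Tap1 and Erap1, did not pass the test. Nor did Nlrc5 or the displayed molecules H2-K1, H2-D1 and B2m, and B2m, whose product every class I molecule needs, had a fold change of 0.991. So 4 of 10 members were higher and 0 lower at an adjusted p under 0.05 (edgeR's quasi-likelihood test with Benjamini-Hochberg adjustment over 14843 genes), against 10.7% of all genes higher and 12.5% lower. The members' median log2 fold change was 0.62, and that of all genes was -0.12. Scaling by library totals alone moved the median of all genes to -0.23.

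**Figure D1:**
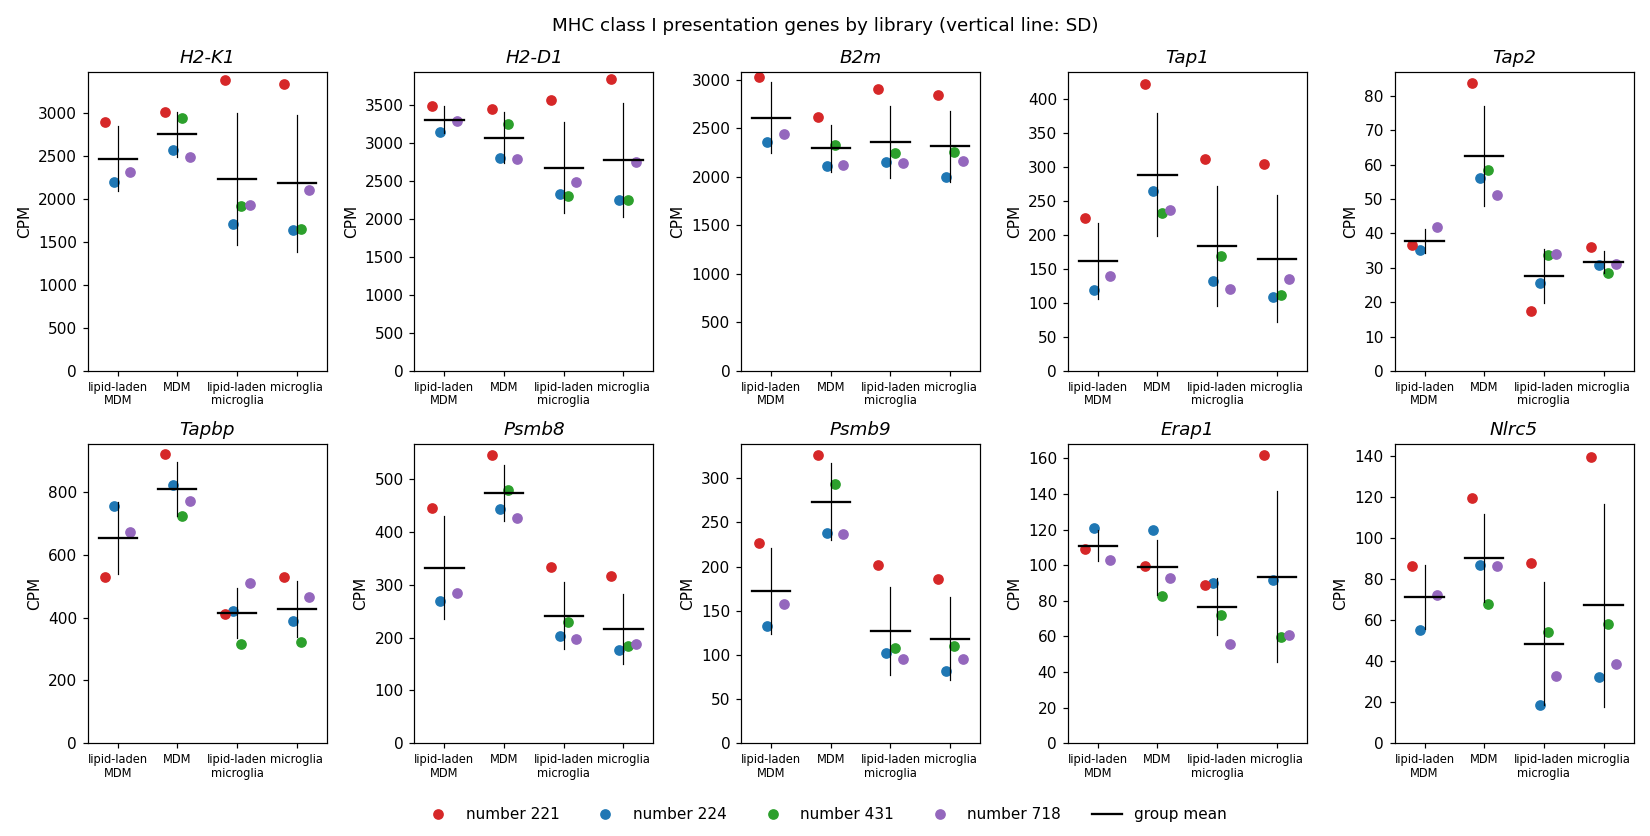
Level of each member in CPM (vertical axes from 0) in every library, with groups from left to right lipid-laden MDM, MDM, lipid-laden microglia and microglia; points are libraries coloured by number, horizontal lines group means and vertical lines SD. For Psmb8, Psmb9, Tap2 and Tapbp all 4 MDM libraries lie above all 4 microglia libraries, and the points of number 221 are at or near the top of most panels.

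Of the heavy chains, H2-K1 had 3003, 2565, 2938 and 2484 CPM in MDM, against 3331, 1637, 1651 and 2103 CPM in microglia. H2-D1 had 3455, 2803, 3256 and 2787 CPM in MDM, against 3849.7, 2247, 2259 and 2752 CPM in microglia. In both, microglia library 221 was the highest of the 8 and the 3 other microglia libraries lay below every MDM library. The log2 fold change of H2-K1 was 0.33 ± 0.23 (SE, an approximation from the size of the change and its F statistic, here and below; adjusted p = 0.340, edgeR) and that of H2-D1 0.15 ± 0.18 (adjusted p = 0.605, edgeR). Leaving out the 4 libraries of number 221, a choice made after seeing the data, gave H2-K1 a log2 fold change of 0.59 (adjusted p = 0.00582, edgeR), and leaving out only microglia library 221 gave 0.63. B2m, the invariant light chain, had 2616, 2108, 2329.8 and 2118 CPM in MDM, against 2844, 1995, 2252 and 2161 CPM in microglia. The groups overlapped throughout, with a log2 fold change of -0.01 ± 0.14 (adjusted p = 0.965, edgeR); scaling by RLE size factors turned its sign, to 0.01.

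Of the transport and loading genes, Tap1 had 422, 264, 232 and 236 CPM in MDM, against 304, 109, 112 and 136 CPM in microglia. Its microglia library 221 lay above 3 of the 4 MDM libraries, but within each of the 4 numbers MDM were higher. Its log2 fold change of 0.80 ± 0.37 had an adjusted p of 0.127 (edgeR) without the number in the model, and with the number as a block it was 0.90 ± 0.15 with an adjusted p of 0.000772. Tap2, the other subunit of the transporter, had 83.7, 56.3, 58.6 and 51.2 CPM in MDM, against 36.2, 30.9, 28.5 and 31.0 CPM in microglia, and the groups did not overlap. Tap2 was 1.97-fold higher (log2 0.98 ± 0.23, adjusted p = 0.00529, edgeR). Tapbp, which bridges the transporter and the heavy chain, had 923, 823, 725 and 771 CPM in MDM, against 529, 391, 323 and 467 CPM in microglia. Every MDM library was above every microglia library, a 1.90-fold rise (log2 0.92 ± 0.18, adjusted p = 0.00131, edgeR).

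Of the genes that make and trim peptides, Psmb8 had 547, 444, 481 and 427 CPM in MDM, against 317, 178, 185 and 188 CPM in microglia. Psmb9 had 326, 238, 294 and 237 CPM in MDM, against 186, 81.6, 111 and 95.6 CPM in microglia. Neither gene overlapped between the groups; Psmb8 was 2.19-fold higher (log2 1.13 ± 0.22, adjusted p = 0.00189, edgeR) and Psmb9 2.31-fold higher (log2 1.21 ± 0.28, adjusted p = 0.00577, edgeR). Erap1, the aminopeptidase that trims peptides to class I length, had 99.6, 119.5, 82.8 and 93.0 CPM in MDM, against 162, 91.5, 59.9 and 60.8 CPM in microglia. Microglia library 221 was the highest of all 8, and the log2 fold change of 0.08 ± 0.27 did not pass (adjusted p = 0.880, edgeR) and turned to -0.02 on library totals. Nlrc5 had 119.8, 86.9, 68.1 and 86.6 CPM in MDM, against 139.7, 32.4, 58.2 and 38.4 CPM in microglia. Its groups overlapped through microglia library 221 as well, with a log2 fold change of 0.43 ± 0.45 (adjusted p = 0.554, edgeR).

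The 4 called members were also the 4 whose groups did not overlap, against 13.8% of all genes with every MDM library above every microglia library. With the number as a block 5 members were higher, Tap1 being added, against 12.6% of all genes. Without number 221 the count was 6, H2-K1 and Tap1 being added, and without number 221 and with the block it was 9, all but B2m. Of 15279 genes tested without number 221, 5208 had an unadjusted p under 0.05 in either direction (edgeR), and 5323 with the block. The share of all genes called higher at the adjusted threshold in those fits is not reported here. The unadjusted counts are therefore no background for the member counts. Leaving out microglia library 221 alone gave 6 members, and 8 with the block. Over the omissions of single libraries, 1269 to 1546 of all genes were called higher, and 1491 to 1685 with the block. The groups differed beside this in the T and NK cell markers, 9 of 14 of which were higher in MDM, in the dendritic cell markers, 10 of 10, and in the glioma markers, 8 of 10 of which were lower. Their part in the members' differences was not tested.

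The proteasome genes that interferon induces beside the members followed the same direction. Psmb10, the remaining inducible catalytic subunit, averaged 369 ± 55.3 CPM in the MDM group, against 190.2 ± 48.2 CPM in microglia (SD, 4 libraries each; log2 fold change 0.96, adjusted p = 0.00141, edgeR). The activator subunits Psme1 and Psme2 had log2 fold changes of 0.86 (adjusted p = 0.000386) and 0.84 (adjusted p = 0.0197), so 3 of these 3 genes rose. Of 16 constitutive proteasome core and assembly genes 3 rose, Psmb3 (0.55), Psma2 (0.50) and Psma7 (0.64), and 0 fell; with the block 7 rose. The list's median was 0.31, against -0.12 for all genes. Psmb5, Psmb6 and Psmb7, the constitutive subunits that the inducible ones replace, had log2 fold changes of 0.25, -0.04 and -0.06, and none passed (adjusted p = 0.261, 0.913 and 0.823, edgeR).

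Because a ratio of counts within a library does not depend on library scaling, each inducible subunit was set over the subunit it replaces. Psmb8 to Psmb5 had a log2 ratio of 2.27, 2.26, 1.99 and 2.10 in MDM, against 1.94, 1.18, 0.76 and 1.07 in microglia. Psmb9 to Psmb6 stood at -0.72, -0.96, -0.85 and -1.21 in MDM, against -1.76, -2.36, -2.21 and -2.60 in microglia. Psmb10 to Psmb7 stood at 2.67, 2.43, 2.61 and 2.51 in MDM, against 1.93, 1.50, 1.12 and 1.55 in microglia. In all 3 ratios the groups did not overlap, and the mean differences were 0.92, 1.29 and 1.03. H2-K1 to H2-D1, the ratio of the heavy chains, averaged -0.16 ± 0.03 in MDM and -0.38 ± 0.12 in microglia (SD, n = 4 each), a difference of 0.22. Each of these 4 differences had p = 0.0286 in a two-sided exact permutation test, the smallest that 4 against 4 libraries allow, and 0.0457 after adjustment over the 16 ratio tests. Exact tests over the 4 number-matched pairs could not go below 0.125, and every pair had the direction of its mean.

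**Figure D2:**
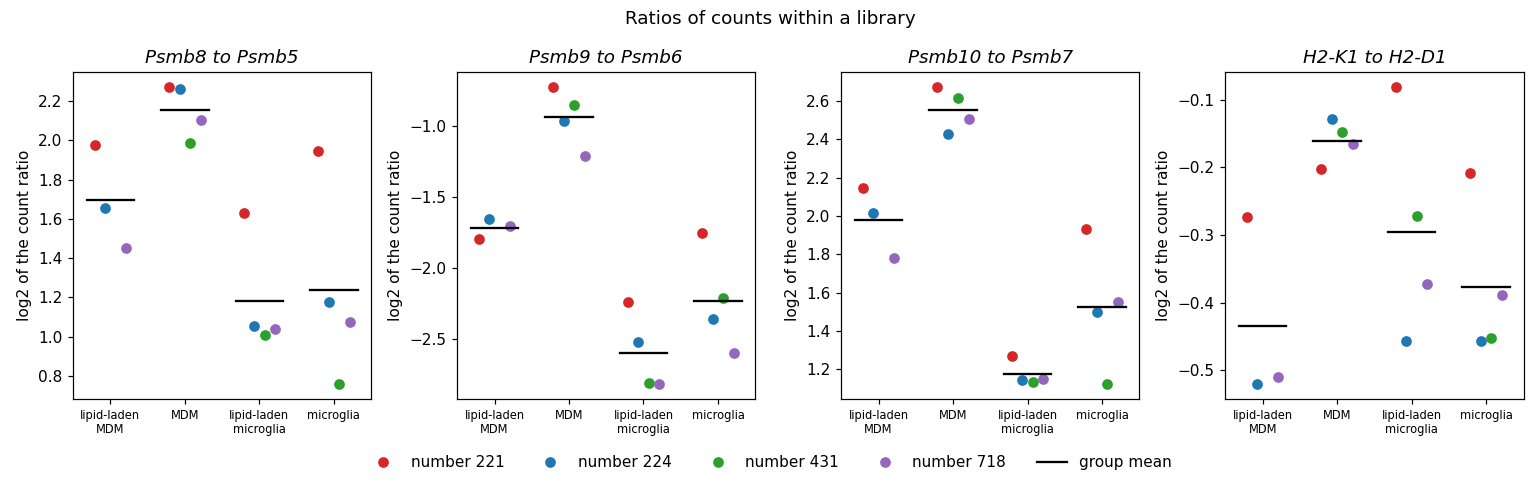
Log2 of the ratio of counts within a library for each inducible proteasome subunit over the constitutive subunit it replaces and for H2-K1 over H2-D1, with groups from left to right lipid-laden MDM, MDM, lipid-laden microglia and microglia; points are libraries coloured by number and lines are group means. MDM have the highest mean of all 4 ratios, and lipid-laden MDM lie below every MDM library in each.

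Among the other genes of the pathway, 14 of 17 class I and class I-like heavy chains could be tested, and 2 rose and 1 fell, with a median of -0.06. H2-T23, a nonclassical class I molecule, had 407, 430.3, 469 and 359 CPM in MDM, against 266, 184, 169 and 201 CPM in microglia, a log2 fold change of 1.02 (adjusted p = 0.00037, edgeR). Of the 50-base stretches of H2-T23, 13.6% also occur in another gene, most often H2-T-ps, so reads there may be shared or lost. Hfe, a class I-like regulator of iron uptake, rose (0.79), and Mr1, which presents vitamin B metabolites, fell (-1.91, adjusted p = 0.000733, edgeR). In the loading complex and its chaperones, 1 of 7 rose, Tapbpl (0.71), a tapasin-related editor of bound peptides, and 0 fell; Calr, Canx and Pdia3 stood at -0.34, -0.32 and -0.20. Of 6 cytosolic and endosomal peptidases tested, Lnpep rose (0.64) and Lap3 (-1.56), Npepps (-0.61) and Tpp2 (-0.49) fell. Of 6 cross-presentation genes, Cybb (3.28), a subunit of the phagocyte NADPH oxidase, and Wdfy4 (1.74) rose, Rab27a (-1.46) fell, and the list's median was 0.07.

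Regulators and interferon genes were measured in the same fit. Of 17 regulators of class I transcription 2 rose and 1 fell: Ciita, the transactivator of class II genes, averaged 317 ± 69.4 CPM in the MDM group, against 6.41 ± 6.04 CPM in microglia (SD, 4 libraries each; adjusted p = 0.00151, edgeR). Irf1 rose (0.88, adjusted p = 0.0444) and Irf8 fell (-0.85, adjusted p = 0.000903). Rfx5, a subunit of the promoter complex that Nlrc5 joins, was scarce, with at most 11.3 CPM in any MDM library and 5.48 CPM in any microglia library. Ifng, the interferon-gamma gene, was listed at 0 in all microglia and at 0.201 to 3.51 CPM in MDM, and was too low to be tested. Of 10 interferon ligands, receptors and kinases tested 4 rose, Jak2 (3.21), Ifngr1 (1.02), Ifnar1 (0.86) and Irf9 (0.78). Of 15 interferon-gamma-induced GTPases 1 rose, Ifi47 (3.32), and 8 with the block, while of 18 genes of the type I interferon response 9 rose and 1 fell, and the 4 with the smallest p were Ifitm3 (1.82), Isg20 (2.41), Irf7 (1.64) and Usp18 (1.62).

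Lipid-laden MDM were then set against MDM without lipid load. Tap1, Tap2, Psmb8 and Psmb9 had log2 fold changes between -0.84 and -0.51, and Tapbp, Nlrc5 and H2-K1 stood at -0.31, -0.34 and -0.16. H2-D1, B2m and Erap1 stood at 0.11, 0.19 and 0.17. Without the number in the model 0 of 10 members passed (edgeR), against 5.21% of all genes higher and 2.96% lower; Tap2 and Psmb9 were the members with an unadjusted p under 0.05. With the number as a block Tap1, Psmb8 and Psmb9 fell, 3 of 10, against 4.18% of all genes lower and 6.12% higher. The members' median was -0.33, and that of all genes 0.04.

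Tap1 had 225, 119.5 and 139.7 CPM in lipid-laden MDM, against 422, 264, 232 and 236 CPM in MDM, and the groups did not overlap. Its log2 fold change was -0.84 ± 0.40 (adjusted p = 0.226, edgeR) without the block and -0.92 ± 0.17 (adjusted p = 0.00389) with it, and the 3 pairs differed by between -1.14 and -0.76. Psmb8 had 445, 269 and 285 CPM in lipid-laden MDM, against 547, 444, 481 and 427 CPM in MDM, where lipid-laden library 221 lay among the MDM libraries. Its log2 fold change was -0.51 ± 0.24 (adjusted p = 0.222, edgeR), and -0.57 ± 0.12 (adjusted p = 0.00769) with the block. Psmb9 had 227, 133 and 158 CPM in lipid-laden MDM, against 326, 238, 294 and 237 CPM in MDM, with no overlap. Its log2 fold change was -0.67 ± 0.30 (adjusted p = 0.205, edgeR), and -0.71 ± 0.15 (adjusted p = 0.00963) with the block.

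Tap2 had 36.6, 35.3 and 41.9 CPM in lipid-laden MDM, against 83.7, 56.3, 58.6 and 51.2 CPM in MDM. The groups did not overlap, yet Tap2 passed neither without the block (-0.72 ± 0.25, adjusted p = 0.0860, edgeR) nor with it (-0.71, adjusted p = 0.111); it passed in DESeq2 (-0.75, adjusted p = 0.0286). Tapbp had 531, 757 and 673 CPM in lipid-laden MDM, against 923, 823, 725 and 771 CPM in MDM, and library 221 was the lowest of the lipid-laden ones and the highest of the others. Its log2 fold change was -0.31 ± 0.19 (adjusted p = 0.359, edgeR). Thus 3 members, Tap1, Tap2 and Psmb9, were lower with no overlap, against 10.7% of all genes.

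H2-K1 had 2892, 2192 and 2311 CPM in lipid-laden MDM, against 3003, 2565, 2938 and 2484 CPM in MDM, with a log2 fold change of -0.16 ± 0.25 (adjusted p = 0.787, edgeR). H2-D1 had 3496, 3145 and 3291 CPM in lipid-laden MDM, against 3455, 2803, 3256 and 2787 CPM in MDM. B2m had 3027, 2357 and 2439 CPM in lipid-laden MDM, against 2616, 2108, 2329.8 and 2118 CPM in MDM. H2-D1 (0.11 ± 0.19) and B2m (0.19 ± 0.15) were higher in 3 of 3 pairs without passing (adjusted p = 0.813 and 0.522, edgeR), and H2-K1 was lower in 3 of 3. Erap1 had 109, 121 and 103 CPM in lipid-laden MDM, against 99.6, 119.5, 82.8 and 93.0 CPM in MDM, and did not pass (0.17 ± 0.29). Nlrc5 had 86.6, 55.2 and 72.3 CPM in lipid-laden MDM, against 119.8, 86.9, 68.1 and 86.6 CPM in MDM, and did not pass either (-0.34 ± 0.49).

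Ratios within a library were lower in lipid-laden MDM as well. Psmb8 to Psmb5 averaged 1.69 ± 0.27 in lipid-laden MDM (SD, n = 3) and 2.16 ± 0.14 in MDM (n = 4), on the log2 scale. Psmb9 to Psmb6 averaged -1.72 ± 0.07 and -0.94 ± 0.21, and Psmb10 to Psmb7 1.98 ± 0.19 and 2.56 ± 0.11, for lipid-laden MDM and MDM. H2-K1 to H2-D1 averaged -0.43 ± 0.14 in lipid-laden MDM and -0.16 ± 0.03 in MDM. The differences of -0.46, -0.78, -0.57 and -0.27 each came without overlap and with p = 0.0286 in a two-sided exact permutation test, the smallest possible, and 0.0457 after adjustment. For Psmb8 to Psmb5 the gap was narrow, between 1.978 in lipid-laden library 221 and 1.986 in MDM library 431. Exact tests over the 3 pairs could not go below 0.25.

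The block calls were looked at library by library. Leaving out each of the 7 MDM libraries in turn, Tap1 and Psmb8 passed with the block in 7 of 7 fits. Psmb9 passed in 5, being lost without lipid-laden library 221 or 224. Leaving out the 4 libraries of number 221, a choice made after seeing the data, left lipid-laden MDM with libraries 224 and 718 only. In that fit all 3 genes passed also without the block, at -0.91, -0.69 and -0.81 (adjusted p = 0.0128, 0.00904 and 0.0192, edgeR). There 3261 of 15279 genes tested had an unadjusted p under 0.05 in either direction (edgeR), and the share lower at the adjusted threshold is not reported here. The lipid-laden MDM libraries had lower sums of dendritic cell markers, 187 to 248 CPM against 1232 to 2758 CPM in MDM, and higher sums of microglia markers, 6160 to 8846 CPM against 2045 to 3368 CPM. Of the marker lists 6 of 10 dendritic, 1 of 14 T and NK (Klrk1) and 3 of 7 MDM markers fell, and 7 of 8 microglia and 4 of 10 glioma markers rose. Their part in the members' values was not tested.

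Beside the members, Psmb10, Psme1 and Psme2 had log2 fold changes of -0.38, -0.43 and -0.40; 0 of the 3 passed without the block and 3 fell with it (adjusted p = 0.0372, 0.0267 and 0.0447, edgeR). Of the 16 constitutive proteasome genes 0 passed without the block, with a median of -0.13. Of the 14 other class I and class I-like genes tested, H2-T23 fell, with 221, 225 and 279 CPM in lipid-laden MDM, against 407, 430.3, 469 and 359 CPM in MDM (-0.78, adjusted p = 0.0133, edgeR), and Mr1 rose (2.03, adjusted p = 0.00237). In the loading complex 0 of 7 passed. Lap3 (1.19) rose among the peptidases, and among the cross-presentation genes Rab27a (0.84) rose and Wdfy4 (-1.25) fell. Of the regulators Irf8 rose (0.61) and Nfkb1 fell (-0.93), and Irf1 passed with the block only (-0.72, adjusted p = 0.0126). Ciita averaged 32.9 ± 12.5 CPM in lipid-laden MDM (SD, n = 3) and 317 ± 69.4 CPM in MDM (n = 4), and it also passed with the block only (-3.54, adjusted p = 0.0224). Jak2 (-1.96) and Ifngr1 (-0.76) fell, of 10 interferon ligands, receptors and kinases, and Ifitm3 (-1.17), Isg20 (-1.66) and Usp18 (-1.13) fell of 18 type I response genes, whereas 0 of 15 interferon-gamma-induced GTPases passed.

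**Figure D3:**
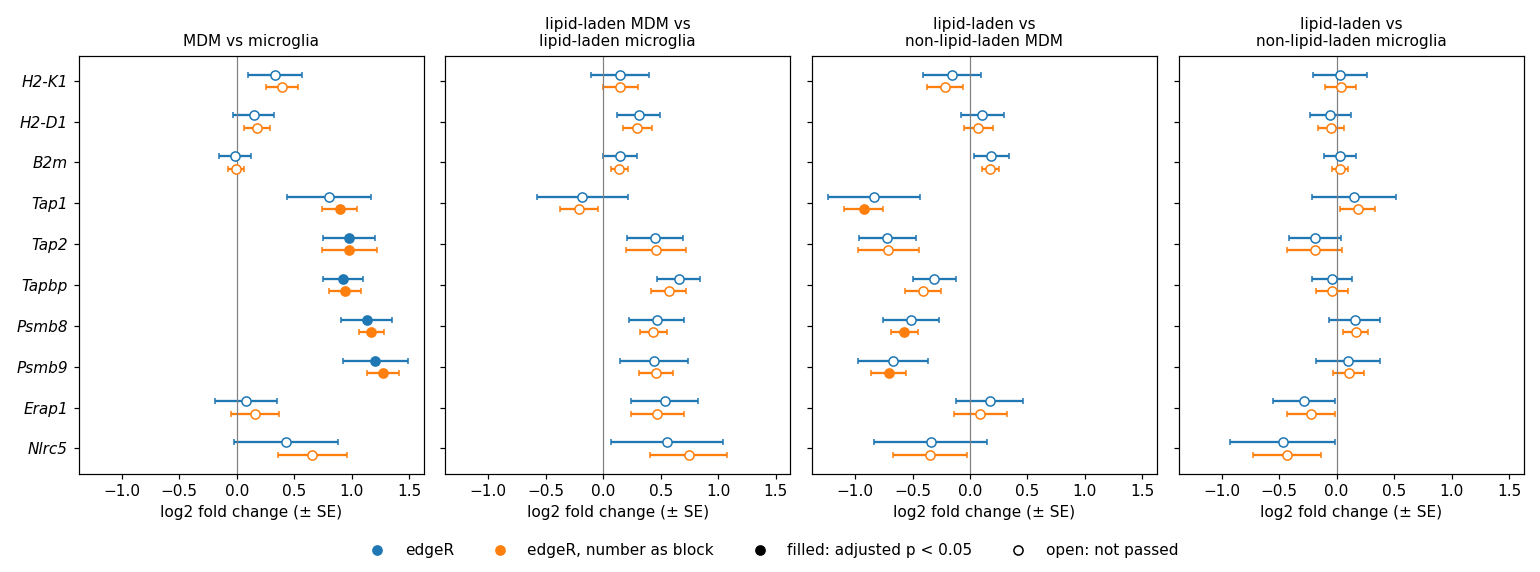
Log2 fold change with SE of the 10 members in 4 comparisons, with blue points from edgeR without the number in the model, orange points with the number as a block, and filled points for an adjusted p under 0.05. The filled blue points are Tap2, Tapbp, Psmb8 and Psmb9 in MDM against microglia; the block adds Tap1 there and Tap1, Psmb8 and Psmb9 in lipid-laden MDM, and no point is filled for lipid-laden microglia against microglia or for lipid-laden MDM against lipid-laden microglia.

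In microglia, lipid load went with no change in a member that could be told from the spread. Of all genes tested, 0 passed (edgeR; 0.00% of all genes, smallest adjusted p 0.0717, 1367 genes at an unadjusted p under 0.05), whereas DESeq2 called 92 genes higher and 72 lower and the block called 0.802% of genes. In all of these 0 members passed. The members' median log2 fold change was -0.01, and 5 of 10 were above 0. Their values ran between -0.47 ± 0.45 (Nlrc5) and 0.16 ± 0.22 (Psmb8).

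H2-K1 had 3373, 1701, 1914 and 1922 CPM in lipid-laden microglia, against 3331, 1637, 1651 and 2103 CPM in microglia. H2-D1 had 3568, 2335, 2310.1 and 2489 CPM in lipid-laden microglia, against 3849.7, 2247, 2259 and 2752 CPM in microglia. B2m had 2908, 2152, 2242 and 2139 CPM in lipid-laden microglia, against 2844, 1995, 2252 and 2161 CPM in microglia. In these 3 genes both libraries of number 221 lay above the 6 others, and the log2 fold changes were 0.03, -0.05 and 0.03. Tap1 had 311, 133, 169 and 119.8 CPM in lipid-laden microglia, against 304, 109, 112 and 136 CPM in microglia. Psmb8 had 335, 204, 229 and 198 CPM in lipid-laden microglia, against 317, 178, 185 and 188 CPM in microglia, and was higher in 4 of 4 pairs by 0.08 to 0.31 (log2) without passing (adjusted p = 0.920, edgeR; 0.580 with the block). Nlrc5 had 87.8, 18.8, 54.4 and 32.9 CPM in lipid-laden microglia, against 139.7, 32.4, 58.2 and 38.4 CPM in microglia, with pair differences of -0.78 to -0.10 (log2), all 4 below 0, without passing (adjusted p = 0.850, edgeR; 0.610 with the block).

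The remaining members were close between the groups. Psmb9 averaged 127 ± 50.1 CPM in lipid-laden microglia and 118 ± 46.6 CPM in microglia, Tapbp 415 ± 79.2 and 427 ± 89.8 CPM, Tap2 27.7 ± 7.84 and 31.6 ± 3.23 CPM, and Erap1 76.7 ± 16.1 and 93.6 ± 48.0 CPM, in the same order (SD, n = 4 each). No member was without overlap in either direction, against 2.69% of all genes higher and 2.81% lower. None of the 4 ratios passed; the largest difference was that of Psmb9 to Psmb6, at -2.60 ± 0.27 in lipid-laden microglia and -2.23 ± 0.35 in microglia (two-sided exact permutation test, adjusted p = 0.211), where 4 of 4 pairs were lower. Of the constitutive proteasome genes 15 of 16 had a log2 fold change above 0, with a median of 0.22 against -0.02 for all genes, and 0 passed.

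Lipid-laden MDM against lipid-laden microglia gave 9 of 10 members above 0, with a median of 0.45 against -0.03 for all genes, and 0 of 10 passed (edgeR), against 2.20% of all genes higher and 0.579% lower. With the block 0 passed too, against 2.84% higher and 0.990% lower. This comparison and the preceding ones share libraries, so their values stand side by side and are not independent. Tapbp came nearest, with 531, 757 and 673 CPM in lipid-laden MDM, against 412, 422, 317 and 511 CPM in lipid-laden microglia. The groups did not overlap, and the log2 fold change of 0.65 ± 0.19 had an adjusted p of 0.0796 (edgeR), 0.0244 in DESeq2 and 0.0481 in limma-voom. Tap2 had 36.6, 35.3 and 41.9 CPM in lipid-laden MDM, against 17.5, 25.7, 33.8 and 34.0 CPM in lipid-laden microglia (0.45 ± 0.24). Erap1 had 109, 121 and 103 CPM in lipid-laden MDM, against 88.7, 90.1, 72.0 and 56.0 CPM in lipid-laden microglia (0.53 ± 0.29). These were the 3 members without overlap, against 7.35% of all genes higher and 5.17% lower.

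Psmb8 had a log2 fold change of 0.46 ± 0.24 and Psmb9 of 0.44 ± 0.30 between the lipid-laden groups, and lipid-laden MDM were higher in 3 of 3 pairs for both (adjusted p = 0.395 and 0.557, edgeR). Tap1 stood at -0.18 ± 0.39, the one value below 0. H2-K1, H2-D1, B2m and Nlrc5 stood at 0.15, 0.31, 0.14 and 0.56. As ratios, Psmb9 to Psmb6 averaged -1.72 ± 0.07 in lipid-laden MDM (SD, n = 3) and -2.60 ± 0.27 in lipid-laden microglia (n = 4), and Psmb10 to Psmb7 1.98 ± 0.19 and 1.17 ± 0.06, both without overlap (two-sided exact permutation test, p = 0.0286, adjusted 0.0457). Psmb8 to Psmb5 averaged 1.69 ± 0.27 and 1.18 ± 0.30 and did not pass (exact permutation, adjusted p = 0.125). Of the other cells' markers 6 of 14 T and NK and 7 of 10 dendritic markers were higher in lipid-laden MDM and 2 of 10 glioma markers lower, and their part in these values was not tested. Outside the members, Cybb (2.96, adjusted p = 0.0388) and the transcription factor Creb1 (0.85, adjusted p = 0.0427) rose, each from its list of 6 or 17 genes tested, and 0 genes of the heavy chain, loading, proteasome, GTPase and type I interferon lists passed without the block. With the block Psmb10 (0.63, adjusted p = 0.00866, edgeR), the GTPase Ifi47 (2.11, adjusted p = 0.00963) and 3 of 18 type I genes were higher, and 1 of the 18 was lower.

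Whether lipid load went with another change in MDM than in microglia was tested as the difference of the log2 fold changes. Without the block 0 of 10 members passed (edgeR), against 1.60% of all genes higher and 0.930% lower. With the block Tap1 (-1.11 ± 0.23, adjusted p = 0.0154), Psmb8 (-0.74 ± 0.16, adjusted p = 0.0193) and Psmb9 (-0.81 ± 0.20, adjusted p = 0.0394) passed, against 1.61% of all genes lower and 2.82% higher. The underlying means were 162 ± 56.2 CPM in lipid-laden MDM, 289 ± 90.2 in MDM, 183 ± 87.9 in lipid-laden microglia and 165 ± 93.4 CPM in microglia for Tap1. For Psmb8 they were 333 ± 97.3, 475 ± 53.2, 242 ± 63.7 and 217 ± 66.9 CPM, and for Psmb9 172 ± 48.9, 274 ± 43.8, 127 ± 50.1 and 118 ± 46.6 CPM, in the same order (SD, n = 3, 4, 4 and 4). Leaving out each library in turn, with the block, Tap1 passed in 15 of 15 fits, Psmb8 in 11 and Psmb9 in 3. The count fell to 1 without library 224 or 718 of lipid-laden MDM, library 224 of MDM or library 431 of microglia. It was 2 without number 221, a choice made after seeing the data that left lipid-laden MDM with libraries 224 and 718. The share of all genes lower in that fit is not reported here. H2-T23 also passed with the block only (-0.95, adjusted p = 0.0363), while Jak2 (-2.54), Isg20 (-2.15) and Ifitm3 (-1.16) fell, and Lap3 (1.20) and Rab27a (1.27) rose, without it.

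The members did not vary as a single group across libraries. With the group means taken out, 15 libraries gave Pearson correlations of log2 CPM of 0.97 between H2-K1 and H2-D1, 0.98 between B2m and Psmb9, 0.96 between Psmb8 and Psmb9, 0.92 between Tap1 and Psmb9 and 0.81 between Nlrc5 and H2-K1. Tap2 stood apart, with values between -0.18 (Psmb9) and 0.24 (Tapbp), and Tapbp had 0.04 with Psmb8 and Psmb9 and 0.44 with H2-D1. These values describe libraries that share number 221 and the normalisation. Relative to the mean of the other libraries of the group, the microglia library of number 221 held 3.25 times as much Nlrc5, 2.56 times as much Tap1, 2.29 times as much Erap1 and 1.85 times as much H2-K1, but 1.20 times as much Tap2. In lipid-laden microglia it held 2.48 times as much Nlrc5 and 2.21 times as much Tap1, and 0.561 times as much Tap2. In MDM the ratios of the 10 members lay between 1.01 (Erap1) and 1.73 (Tap1), and in lipid-laden MDM between 0.742 (Tapbp) and 1.74 (Tap1).

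**Figure D4:**
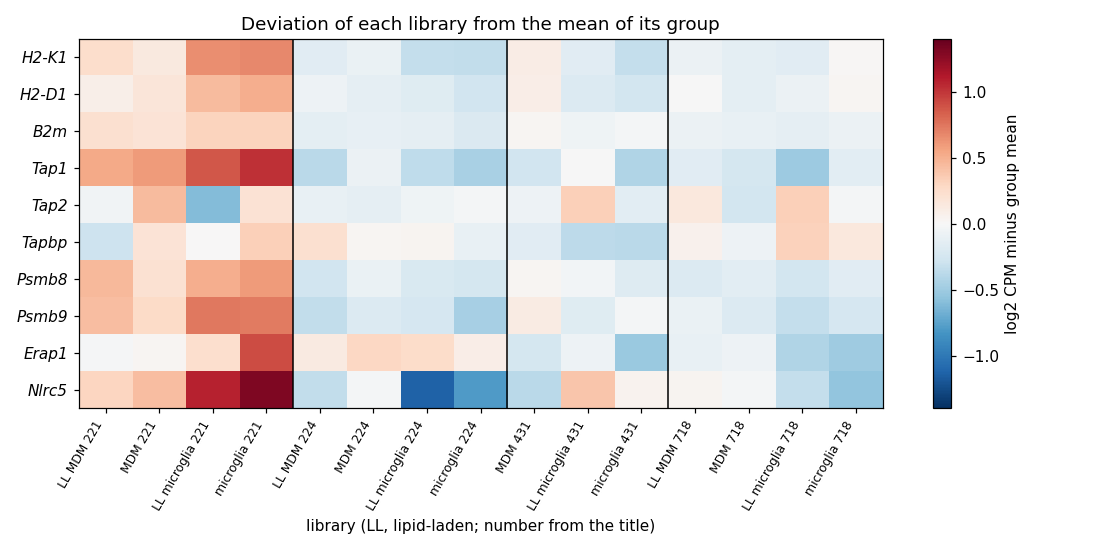
Deviation of each library's log2 CPM from the mean of its group, for the 10 members (rows) and 15 libraries (columns, ordered by number, black lines between numbers; LL, lipid-laden), with red above and blue below the group mean. The number 221 columns are red for H2-K1, H2-D1, B2m, Tap1, Psmb8, Psmb9 and Nlrc5, while Tap2 and Tapbp are mixed.

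The summed level of 15 interferon-gamma-induced GTPases moved with number 221 too. It was 2122, 2160, 1339 and 2079 CPM in library 221 of lipid-laden MDM, MDM, lipid-laden microglia and microglia. In the others of each group it was at most 839.6, 1444, 639 and 629 CPM. In the same order, endothelial markers were highest in library 221 too, at 152, 183, 267 and 153 CPM. The others of each group had at most 64.1, 105, 76.1 and 81.0 CPM. Microglia markers were lowest in library 221 of each group, at 6160, 2045, 5712 and 8558 CPM. In both microglia groups the type I interferon sum was highest in library 221. In MDM it was lowest there, at 3864 CPM against 4706 to 5250 CPM, and in lipid-laden MDM it lay between the others. Irf1 stood at 142 CPM in microglia library 221, against 69.1 to 73.0 CPM in the other 3. Ifng was at 0 in all 8 microglia libraries. Over all 15 libraries, the genes whose log2 CPM followed the mean of the members most closely were Fgl2 (Pearson r 0.97), Zbp1 (0.94), Nampt (0.94), Psmb10 (0.94) and Samhd1 (0.94), out of 8747 candidates whose mean log2 CPM reached 3. With group means taken out they were Arg1 (0.95), Gm16286 (0.95), H2-T22 (0.94), Nampt (0.94) and Grpel2 (0.93). The members' mean log2 CPM stood 0.19 to 0.66 above its group mean in the libraries of number 221, and below it in every other library. The part of number 221 in these correlations was not tested. H2-T22 shares 34.5% of its 50-base stretches with other genes, mostly H2-T10, so its level is uncertain.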

How the data were processed

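RNA of 15 sorted libraries was made by column extraction with DNase digestion, per the labels' protocols. The authors deposited raw counts per gene, per the file headers, and per the submitters' processing notes the genome build was mm10. No aligner, counter or strand setting is given in the sources used here. No column belonged to another series (0). Total counts ran between 7798952 and 11419338 per library. Genes were kept by filterByExpr (minimum count 10, minimum total 15), leaving 14843 of 55486. The test was edgeR 4.0.16 (R 4.3.3) quasi-likelihood with TMM scaling over all 4 groups, with Benjamini-Hochberg adjustment and a threshold of 0.05. Alternatives were RLE and library totals, no filter, only the groups compared, DESeq2 1.42.0, limma-voom 3.58.1, the number as a block and leaving out each library, and, chosen after seeing the data, leaving out number 221 and leave-one-out with the block. Ratios of counts were tested by exact permutation over every arrangement of the libraries, whose smallest p was 0.0286. The Benjamini-Hochberg adjustment of the ratio tests used scipy 1.17.1. The script was tested on simulated data. Exon lengths and shared 50-base stretches came from GENCODE M21, and promoters from RefSeq GRCm38.p6.

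The titles give each library a number, tagged mn, without saying what it is. Deviations from the group mean correlated between libraries of the same number by 0.124 to 0.256 in microglia with and without lipid load and 0.107 to 0.168 between the lipid-laden groups, and by 0.0272 to 0.123 in MDM and 0.0152 to 0.150 between the groups without lipid load. Libraries of different numbers gave -0.200 to 0.0941, -0.108 to 0.0291, -0.0767 to 0.0559 and -0.134 to 0.0296 in that order. In MDM and between the groups without lipid load these overlapped the same-number values. Male-specific Ddx3y had 1105 to 1873 counts in each library of number 224 and 0 in all others, so libraries of that number match in sex. Female-specific Xist had 0 to 4 counts in number 224 and 1424 to 4228 in the others. Each group thus holds libraries of both sexes, and the part of sex in any result was not tested. On these values and the shared numbers, the number was used as a pairing, with the unpaired fit kept as the main one; for MDM and for the groups without lipid load the pairing is the less certain.

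The members and lists were chosen with earlier results of these data known, and the fuller ISRE form was added after the promoters were read. Named are all members, up to 4 genes of each list with the smallest p in a comparison, 9 set genes of the proteasome and of regulation, and the genes most like the members' mean; a gene that this rule names is not reported here.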

Additional observations from a re-analysis of the deposited data

Results flagged for a closer look

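In 9 of 42 checks of groups of 4 libraries, 1 library lay further from the others than Dixon's limit at the 95% level, where chance gives about 1 in 20, and in all 9 it was number 221. In lipid-laden microglia these were H2-K1 at 3373 CPM, H2-D1 at 3568 CPM, B2m at 2908 CPM, Psmb9 at 202 CPM, the log2 ratio of Psmb8 to Psmb5 at 1.63 and that of Psmb10 to Psmb7 at 1.27. In MDM it was Tap1 at 422 CPM, and in microglia Tap1 at 304 CPM and Psmb8 at 317 CPM. The checks share libraries and are not independent.

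The lipid-load effect differed between the cell types, with the number as a block, for Tap1 (-1.11), Psmb8 (-0.74) and Psmb9 (-0.81, log2, effect in MDM minus effect in microglia). Without the block none of the 3 passed (adjusted p = 0.386, 0.333 and 0.378, edgeR). With the block and each library left out in turn, Tap1 passed in 15 of 15 fits, Psmb8 in 11 and Psmb9 in 3. For MDM the pairing by number is the less certain.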

How the results depend on the processing

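Over the alternatives, member values kept direction and side of the threshold 1044 times, newly passed 90 times and changed sign 56 times. B2m in MDM against microglia changed sign with RLE (0.0061), in DESeq2 (0.0061) and without number 221 (0.051, with or without the block), and Erap1 with library totals (-0.021). Without number 221, lipid load in microglia changed sign for Tap2, Tapbp and Erap1 (0.060, 0.094 and 0.047, or 0.051, 0.085 and 0.056 with the block), and the difference of the lipid-load effect changed sign for Nlrc5 (-0.060). The cause was not tested.

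Lipid-laden microglia against microglia gave 92 genes higher and 72 lower in DESeq2, 11 and 6 with no filter, 60 and 59 with the block, and 11 and 6 with the block without number 221. In lipid-laden MDM against MDM, 851 genes were lower in DESeq2 and 747 in limma-voom. In lipid-laden MDM against lipid-laden microglia, 515 were higher and 283 lower in DESeq2, 140 lower in limma-voom, 147 lower with the block, and 127 higher and 49 lower with only those groups. The difference of the lipid-load effect gave 546 and 414 in DESeq2 and 418 and 239 with the block. Members lower in lipid-laden MDM against MDM numbered 1 in DESeq2 (Tap2), 3 with the block and 3 without number 221, with or without the block. Between the lipid-laden groups 1 member was higher, Tapbp, in DESeq2, in limma-voom and with the block without number 221. The difference gave 3 members lower with the block, and 2 without number 221 with or without it. MDM against microglia gave 9 members higher with the block without number 221. In that fit 5323 of 15279 genes tested had an unadjusted p under 0.05 in either direction (edgeR). Beyond these and Tap1 in MDM against microglia, the block changed no member's call. Without number 221, lipid-laden MDM kept only libraries 224 and 718. For the member counts without number 221, the share of all genes called at the adjusted threshold is not reported here.

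In number-matched pairs the ratios could not pass. For lipid load in MDM they were -0.52 (Psmb8 to Psmb5), -0.75 (Psmb9 to Psmb6), -0.55 (Psmb10 to Psmb7) and -0.27 (H2-K1 to H2-D1), with paired exact p = 0.25. For MDM against microglia they were 0.92, 1.29, 1.03 and 0.22 in the same order, with paired exact p = 0.125. Between the lipid-laden groups they were 0.81 (Psmb9 to Psmb6) and 0.80 (Psmb10 to Psmb7).

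Leaving out each library in turn, with and without the block where both were run, genes called ranged from 0 to 43 higher and 0 to 21 lower in lipid-laden microglia against microglia. They ranged from 451 to 890 and 206 to 579 in lipid-laden MDM against MDM, from 155 to 308 and 13 to 85 between the lipid-laden groups, and from 113 to 529 and 73 to 302 for the difference. In MDM against microglia genes called ranged from 1269 to 1685 higher and 1462 to 1911 lower. Members called ranged from 4 to 8 higher in MDM against microglia, 0 to 3 lower in lipid-laden MDM and 0 to 3 lower for the difference. Lipid load in microglia ranged from -0.24 to 0.33 for H2-K1, -0.22 to 0.17 for H2-D1, -0.086 to 0.16 for B2m, -0.23 to 0.65 for Tap1, -0.14 to 0.098 for Tapbp, -0.042 to 0.42 for Psmb8, -0.22 to 0.42 for Psmb9, -0.45 to 0.13 for Erap1 and -0.92 to 0.19 for Nlrc5. MDM against microglia ranged from -0.081 to 0.12 for B2m and -0.072 to 0.50 for Erap1, and the lipid-laden groups from -0.50 to 0.20 for Tap1. Lipid load in MDM ranged from -0.0098 to 0.19 for H2-D1 and -0.089 to 0.27 for Erap1. The difference ranged from -0.48 to 0.083 for H2-K1, -0.055 to 0.33 for H2-D1 and -0.53 to 0.58 for Nlrc5.

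Ratios under the same omissions ranged, for lipid load in MDM, from -0.60 to -0.34 (Psmb8 to Psmb5), -0.87 to -0.71 (Psmb9 to Psmb6), -0.66 to -0.47 (Psmb10 to Psmb7) and -0.35 to -0.23 (H2-K1 to H2-D1). For MDM against microglia they ranged from 0.76 to 1.15 (Psmb8 to Psmb5) and 0.19 to 0.27 (H2-K1 to H2-D1). Between the lipid-laden groups they ranged from 0.80 to 1.00 (Psmb9 to Psmb6) and 0.73 to 0.91 (Psmb10 to Psmb7), and in microglia with against without lipid load from -0.22 to 0.18 (Psmb8 to Psmb5) and -0.49 to -0.22 (Psmb10 to Psmb7).

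Limits are 3 or 4 libraries a group, both sexes within each group, markers of other cells that differ between groups, number 221, and a pairing that the labels do not explain.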
